A study of Mus musculus with 6 samples.

Results

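The genes considered here were 50 mouse genes of the cell cycle and of DNA replication. They were listed by gene symbol, with earlier results of these data known. They comprised 13 cyclins and cyclin-dependent kinases, 6 kinase inhibitors, 10 genes of the E2F and Rb families, 14 genes of DNA replication and 7 genes of mitosis and cytokinesis. A region belonged to a gene where the deposited table carried the gene's symbol in the region's name. Of the 50 genes, 38 had such a region. They held 118 distinct regions, out of 68634 regions with a gene name and 213957 regions in all. All 118 were peaks, short regions set between longer stretches, which follows from the table naming genes at peaks only.

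Methylated DNA was compared between hearts of male C57BL/6 mice at postnatal day 14 (P14, 3 libraries) and at postnatal day 1 (P1, 3 libraries). The mice carried no allele or treatment that the labels name. The labels give the tissue as left ventricle, while the collection protocol describes ventricles with the septum left in place and the atria removed. The 3 libraries of an age are called biological replicates, and whether a library came from 1 heart or from several is not given in the sources used here. Sonicated DNA was enriched with a methyl-CpG binding domain protein and sequenced (MBD-seq), so a value is a number of captured reads and not a methylation level per site. Such data hold no transcripts, so the tissue could not be checked against marker genes. In whole ventricle, a change in methylation within cells and a change in the mix of cells cannot be told apart.

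Cyclins bind and activate cyclin-dependent kinases, and the inhibitors of the Cip/Kip and Ink4 families block them. Rb and its relatives hold E2F transcription factors in check until cyclin-dependent kinases phosphorylate them, after which E2F targets such as the replication genes are transcribed. The origin recognition complex, with Cdc6 and Cdt1, loads the Mcm helicase onto DNA, and the mitotic kinases and the kinetochore later separate the copied chromosomes. Heart muscle cells of the mouse largely leave this cycle in the days after birth, and many pass through a last division of the nucleus without cytokinesis. DNA methylation in mammals lies mostly on cytosines followed by guanine (CpG), and the CpG-rich starts of widely used genes are usually free of it.

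No peak overlapped a promoter window of the genes with such a window at hand. RefSeq promoter windows, from 250 bases before to 50 bases after an annotated start, were at hand for 42 of the 50 genes, 52 windows in all. Ccna2, Ccnd1, Ccnd2, Ccne2, Rb1, E2f4, Mcm4 and Aurkb had no entry. Of the 52 windows, 0 overlapped a peak and 52 lay wholly in the long stretches between peaks. Among all 32851 windows of the table, 7.58% overlapped a peak. The windows of these genes were rich in CpG, with a median of 24.0 CG dinucleotides (range 1 to 49), against a median of 7.0 over all windows. Among the 6563 windows with at least that median of 24.0, 0.914% overlapped a peak. That share applies only to those of the 52 windows that were as rich in CG. No matched share was computed for the windows with fewer CG.

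**Figure D1:**
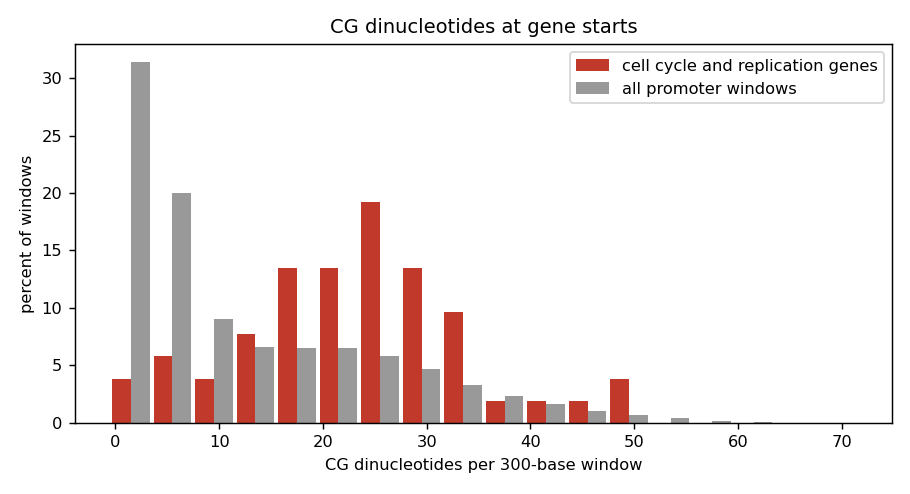
Percent of 300-base promoter windows (y axis) by their number of CG dinucleotides, in groups of 4 (x axis), for the 52 windows of the cell cycle and replication genes (red) and all 32851 windows (grey). The windows of these genes had a median of 24.0 CG, against 7.0 over all windows.

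The windows of Orc5, Orc3, Mis12 and Mki67 are shown for the peaks near them. The 4 peaks of the whole gene list with the largest log2 fall in captured reads lay within 2026 bases of those starts. Each is written 5′ to 3′ on the strand of the gene, from RefSeq, with every CG in capitals.
Orc5 (GRCm38.p6, chr5:22550289-22550588, minus strand): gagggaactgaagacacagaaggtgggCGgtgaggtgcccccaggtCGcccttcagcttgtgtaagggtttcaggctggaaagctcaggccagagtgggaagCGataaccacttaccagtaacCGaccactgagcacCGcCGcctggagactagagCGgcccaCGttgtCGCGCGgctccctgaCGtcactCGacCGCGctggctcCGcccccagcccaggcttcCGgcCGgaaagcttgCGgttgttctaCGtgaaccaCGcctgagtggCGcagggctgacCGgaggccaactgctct
Orc3 (GRCm38.p6, chr4:34614893-34615192, minus strand): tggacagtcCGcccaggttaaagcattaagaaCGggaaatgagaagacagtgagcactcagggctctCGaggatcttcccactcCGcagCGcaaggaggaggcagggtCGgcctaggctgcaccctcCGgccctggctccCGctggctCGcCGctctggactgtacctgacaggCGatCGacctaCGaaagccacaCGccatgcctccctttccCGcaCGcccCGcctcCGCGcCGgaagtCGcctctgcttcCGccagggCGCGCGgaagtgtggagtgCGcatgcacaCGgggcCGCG
Mis12 (GRCm38.p6, chr11:71019361-71019660, plus strand): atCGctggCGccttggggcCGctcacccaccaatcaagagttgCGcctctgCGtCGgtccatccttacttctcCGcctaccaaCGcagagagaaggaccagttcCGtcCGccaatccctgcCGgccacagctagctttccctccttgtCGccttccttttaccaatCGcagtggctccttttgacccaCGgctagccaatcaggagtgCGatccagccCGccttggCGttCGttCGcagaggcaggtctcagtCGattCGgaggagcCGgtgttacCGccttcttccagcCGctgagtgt
Mki67 (GRCm38.p6, chr7:135716330-135716629, minus strand): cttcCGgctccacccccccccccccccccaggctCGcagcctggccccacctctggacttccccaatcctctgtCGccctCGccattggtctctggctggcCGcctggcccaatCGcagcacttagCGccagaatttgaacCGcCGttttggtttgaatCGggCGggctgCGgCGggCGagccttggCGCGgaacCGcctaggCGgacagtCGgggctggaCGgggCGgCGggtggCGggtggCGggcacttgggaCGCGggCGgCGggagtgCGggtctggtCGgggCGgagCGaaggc
These windows held 23, 29, 24 and 32 CG for Orc5, Orc3, Mis12 and Mki67. At least as many were present in 21.5%, 12.9%, 20.0% and 9.52% of all windows. All 4 windows lay in stretches between peaks, so the falls described below were measured beside these CG-rich starts and not in them.

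The libraries differed in how much of their reads lay in peaks, which bears on every value below. Reads summed over all listed regions were 16284216 to 21512072 at P14 and 17532547 to 18505983 at P1. Peaks held 16.98% to 31.3% of them at P14, highest in P14 replicate 1, and 11.57% to 13.38% at P1. Differences were therefore fitted within peaks, with levels in CPM, the reads of a peak scaled to the library's total in peaks after a trimmed mean of M values (TMM) correction. A peak was called where its adjusted p in edgeR's quasi-likelihood test was under 0.05, adjusted over all 90159 peaks tested. A median peak held 19 to 48 reads per library at P14 and 14 to 15 at P1. Of the 118 peaks, 112 passed the filter on low counts. The 6 that did not lay at Ccnb1, Ccnd3, Cdk6, E2f3, Rb1 and Mcm5.

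Captured reads fell at P14 in 3 of the 112 peaks, at Orc5, Orc3 and Mis12, and rose in 0. The share called was 2.68%, against 2.85% of all tested peaks, of which 2.71% were lower and 0.134% higher at P14. The share among these genes was thus near the background. At an unadjusted p under 0.05, 1 of their peaks was higher and 6 were lower, or 6.25% of them against 7.76% of all tested peaks. DESeq2 called 3 of 118 peaks of these genes lower and 0 higher, beside 3196 lower and 101 higher of all 101250 peaks. With limma-voom, 4 of 112 were lower and 0 higher, beside 3899 lower and 110 higher of all 90159. The calls depended on which libraries were kept. Without P14 replicate 1 alone, 0 peaks passed, among these genes and among all peaks. Without replicate 1 of both ages, the Mis12 peak still passed, and among all 91713 peaks tested 141 were lower and 19 higher.

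Orc5 encodes a subunit of the origin recognition complex, which marks the sites where replication starts. Its gene (ENSMUSG00000029012) lies on chromosome 5, and the fallen peak, at 22547465 to 22548312 of GRCm38, lay inside the RefSeq span, 2026 bases downstream of the start. The table also names it for AC112688NA1. It held 8, 10 and 10 reads at P14 and 43, 21 and 21 at P1. The level was 1.14, 2.68 and 3.73 CPM at P14, against 22.5, 9.7 and 9.85 CPM at P1. Every P14 library was below every P1 library, and P1 replicate 1 stood above the other P1 libraries. The fall was 6.08-fold (log2 change -2.60, SE 0.47, edgeR adjusted p = 0.0196), and without P14 replicate 1 the log2 change was -2.11 (adjusted p = 0.174). Without replicate 1 of both ages it was -1.61 (edgeR adjusted p = 0.0891). A further Orc5 peak lay 1860 bases before the same start and had 18.2, 18.8 and 10.8 CPM at P14 and 13.1, 12.9 and 10.8 CPM at P1 (log2 change 0.40, SE 0.28, edgeR adjusted p = 1). Of the peaks on either side of the Orc5 start, the one inside the gene passed the test. The one before the start did not, and its ages overlapped, so no change is claimed there.

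Orc3 encodes another subunit of the same complex. Its single peak (ENSMUSG00000040044, chromosome 4, 34613177 to 34613900) lay inside the gene, 1042 bases from the start, and the table assigns it also to Rars2, whose promoter window overlaps that of Orc3 on the other strand. It held 9, 13 and 4 reads at P14 and 17, 20 and 14 at P1. The level was 1.28, 3.48 and 1.49 CPM at P14, against 8.9, 9.23 and 6.57 CPM at P1, with no overlap between the ages. The fall was 4.0-fold (log2 change -2.0, SE 0.51, edgeR adjusted p = 0.0365). This call was the weakest of the 3. It was lost on leaving out any single library other than P14 replicate 2, with adjusted p between 0.0485 and 0.243 over the 6 fits. Without P14 replicate 1 the log2 change was -1.64, and without replicate 1 of both ages -1.57 (edgeR adjusted p = 0.157).

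Mis12 encodes a subunit of the kinetochore, through which chromosomes attach to spindle microtubules. Its single peak (ENSMUSG00000040599, chromosome 11, 71020536 to 71021954) lay inside the gene, 925 bases from the start, and is also named for the neighbouring Derl2, a gene of protein export from the endoplasmic reticulum. It held 15, 15 and 11 reads at P14 and 49, 30 and 27 at P1. The level was 2.13, 4.02 and 4.1 CPM at P14, against 25.6, 13.8 and 12.7 CPM at P1. The ages did not overlap, and P1 replicate 1 was again the highest library. The fall was 5.33-fold (log2 change -2.41, SE 0.38, edgeR adjusted p = 0.0196). Without P14 replicate 1 it was -2.06 on the log2 scale (adjusted p = 0.174), and without replicate 1 of both ages -1.69 (adjusted p = 0.0437).

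P1 replicate 1 was the highest P1 library in 81.7% of the 2447 peaks lower at P14, against 37.4% of peaks not called, and the part of that library in the results above was not tested beyond leaving it out. Without it the Orc5 and Mis12 peaks still passed, with log2 changes of -2.08 and -2.02, and the Orc3 peak did not (-1.93, edgeR adjusted p = 0.0821). Of all peaks tested without it, 0.608% were lower at P14.

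**Figure D2:**
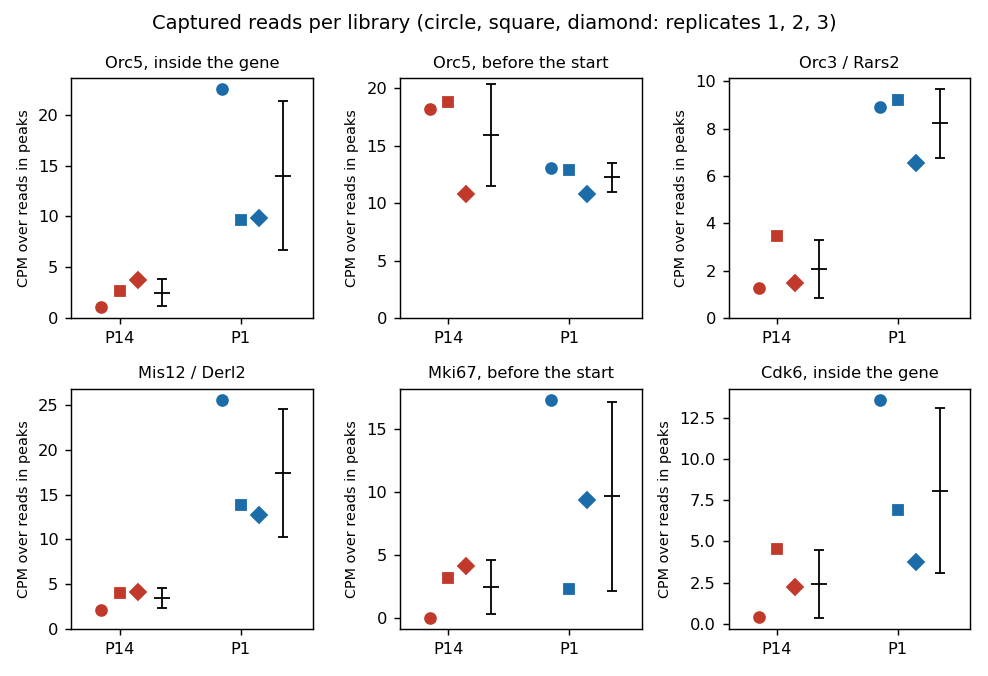
Captured reads in CPM (y axis) in the 3 P14 libraries (red, left) and the 3 P1 libraries (blue, right), with the mean and SD in black. At the fallen Orc5 peak P14 libraries reached at most 3.73 CPM and P1 libraries at least 9.7 CPM, while at the Orc5 peak before the start the ages overlapped.

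A peak can also be set against its own surroundings within each library, which needs no scaling between libraries. The read density in a peak was divided by that of the stretches touching it on both sides, or on 1 side where the table has only that. Across all peaks the median of this ratio was 4.73, 2.99 and 2.73 in P14 replicates 1 to 3, and 1.7, 2.07 and 1.95 in P1 replicates 1 to 3. Over the peaks of these genes it was 4.57, 2.75 and 2.55 at P14 and 1.85, 1.93 and 1.89 at P1. Of the 112 peaks with a flank, 0 at P14 and 8 at P1 had a mean ratio below 1, among them the broadest Cdk6 peak with a mean of 1.62 at P14 and 0.547 at P1. The matching counts over all peaks were not made. The medians over all peaks were likewise higher at P14 than at P1, so this direction is not particular to these genes.

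The Mis12 peak went against that direction, with ratios of 1.089, 0.941 and 1.079 at P14 and of 3.599, 2.246 and 2.437 at P1. At P14 the density in it was thus close to that of its flanks. The Orc5 peak had ratios of 1.455, 1.474 and 1.574 at P14 and of 5.681, 2.971 and 3.232 at P1. The Orc3 peak had ratios of 1.829, 1.904 and 0.81 at P14 and of 2.123, 2.897 and 2.05 at P1. In all 3 the P14 libraries lay below the P1 libraries without overlap, and below the median peak of their own library. These peaks were called for a fall in the same reads that enter the ratio, so the ratios give no independent support for the calls. An exact permutation test on 3 libraries against 3 cannot go below a p of 0.1, so the ratios are given as values. The same ratios over all peaks lower at P14 had medians of 1.68, 1.76 and 1.66 at P14 and 4.37, 3.0 and 2.89 at P1.

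**Figure D3:**
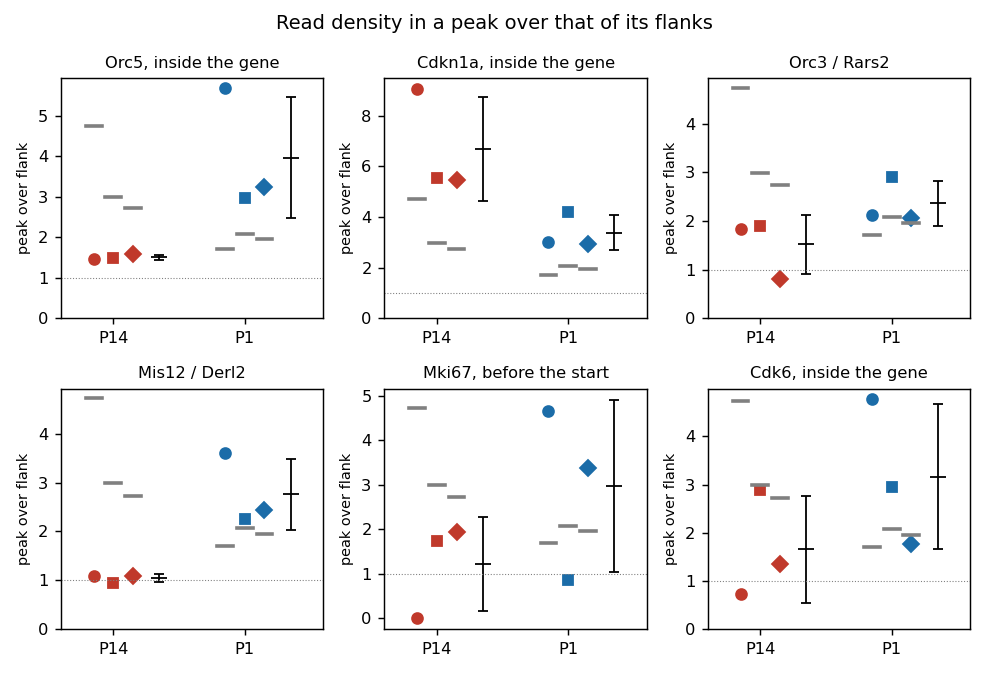
Read density in a peak divided by that of the stretches touching it (y axis, no unit) in the P14 libraries (red, left) and the P1 libraries (blue, right), with mean and SD in black and the median of all peaks in the same library as a grey bar. The fallen Orc5, Orc3 and Mis12 peaks stood below the grey bars at P14 and above them at P1, and the Cdkn1a peak above them at both ages.

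The other 109 tested peaks showed no change past the threshold, and most changed little. The median log2 change over the 112 was -0.16, against -0.01 over all tested peaks, and 33.0% of them were above 0, against 49.1% of all. Without P1 replicate 1 the medians were -0.06 and 0.02. The shares above 0 were 46.4% against 50.4% with the share of reads in peaks as a covariate, and 95.5% against 95.2% when scaled to the reads between peaks. A log2 change below -1 was seen in 5 peaks, or 4.46%, against 4.84% of all tested peaks, and 0 were above 1, against 1.22% of all. The 5 were the 3 called peaks and peaks at Mki67 and Cdk6. No other tested peak of these genes was below -0.55. The Mki67 and Cdk6 peaks did not pass, and without replicate 1 of both ages their changes were -0.67 and -0.58.

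**Figure D4:**
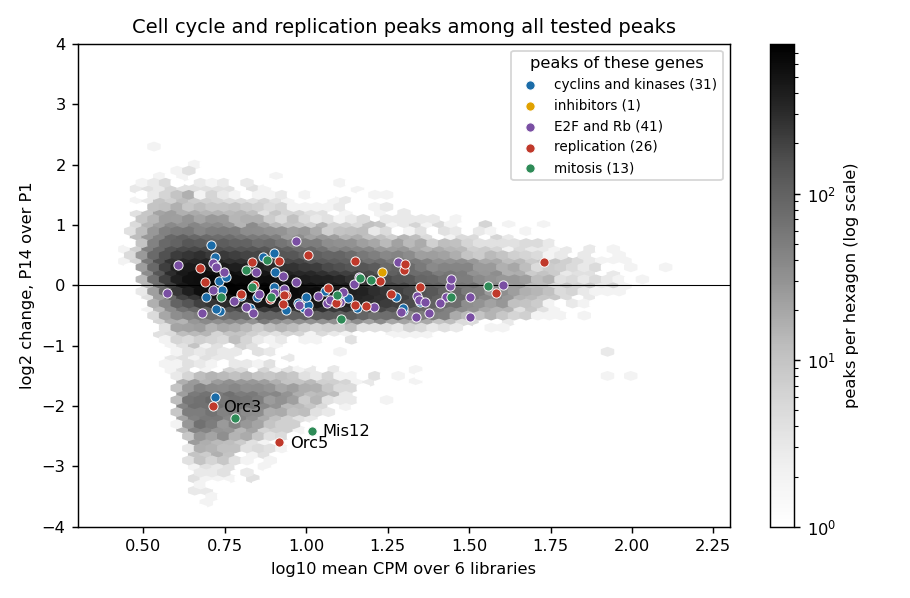
Log2 change, P14 over P1 (y axis), against the log10 of mean CPM over the 6 libraries (x axis) for 90159 tested peaks (grey hexagons, darker for more peaks on a log scale) and the 112 peaks of these genes coloured by role. The 3 labelled peaks passed the test, and 107 of the 112 lay between -0.55 and 0.74.

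Mki67, the gene of the proliferation marker Ki-67, had 3 peaks. One of them, chosen for mention after its values were seen, lay on chromosome 7 (135717679 to 135718354), 1300 bases before the start. It had 0.0, 3.21 and 4.1 CPM at P14 and 17.3, 2.31 and 9.38 CPM at P1, so the ages overlapped. The log2 change of -2.20 (SE 0.76) did not pass, with an edgeR adjusted p of 0.18, and the P14 library with the most reads in peaks had 0 reads there. Without P14 replicate 1 the change was -1.37, without P1 replicate 1 -1.47 and without both -0.67. The other Mki67 peaks had log2 changes of -0.03 and 0.25.

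Among cyclins and their kinases, 10 of 13 genes had peaks and 31 of 34 peaks were tested. Of these, 0 passed in edgeR, against 2.85% of all tested peaks. At an unadjusted p under 0.05, 1 was lower and 0 higher, or 3.23% of them against 7.76% of all tested peaks. The median log2 change was -0.20. Ccnd3, a D-type cyclin that pairs with Cdk4 and Cdk6, had 13 peaks, with tested changes between -0.42 and 0.67. Cdk6, the kinase partner of the D-type cyclins, had 9. The Cdk6 peak with the smallest p (chromosome 5, 3348344 to 3349052) lay 4451 bases inside the gene. It had 0.43, 4.55 and 2.24 CPM at P14 and 13.6, 6.93 and 3.75 CPM at P1, a log2 change of -1.85 (SE 0.64) that did not pass in edgeR (adjusted p = 0.181) and passed in limma-voom (adjusted p = 0.00935). The change was -1.17 without P14 replicate 1, -2.83 without P14 replicate 2 and -1.25 without P1 replicate 1. Its 7 other tested peaks lay between -0.38 and 0.53. The highest of these changes belonged to the broadest Cdk6 peak (3435559 to 3438937, 3379 bp), which averaged 9.35 ± 1.83 CPM at P14 and 6.56 ± 2.38 CPM at P1 (SD, n = 3 each; edgeR adjusted p = 1). The Cdk6 peak with the highest level (3518552 to 3519927) averaged 20.2 ± 2.72 CPM at P14 and 24.3 ± 5.86 CPM at P1 (SD, n = 3 each; log2 change -0.28). Ccnd1, Ccne1, Cdk1, Cdk4 and Ccnb2, which act from the start of the cycle to mitosis, had 1 peak each. Their changes were 0.14, -0.21, -0.40, -0.19 and -0.19, each with an edgeR adjusted p of 1.

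Among the inhibitors, only Cdkn1a of 6 genes had a peak. Cdkn1a encodes p21, which arrests the cycle downstream of p53. The peak (chromosome 17, 29097728 to 29099261) lay 3959 bases from the nearest start and had 18.9, 17.4 and 19.0 CPM at P14 and 15.2, 19.4 and 12.7 CPM at P1. The ages overlapped, and the log2 change of 0.23 (SE 0.25) did not pass (edgeR adjusted p = 1). Against its flanks the ratio was 9.073, 5.548 and 5.459 at P14 and 3.021, 4.194 and 2.939 at P1, above the median peak in every library.

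All 10 genes of the E2F and Rb families had peaks, 43 in all. Of these, 41 were tested and 0 passed in edgeR, against 2.85% of all tested peaks. At an unadjusted p under 0.05, 1 was higher and 1 lower, or 4.88% of them against 7.76% of all tested peaks. The median log2 change was -0.17 and the range -0.53 to 0.74, the narrowest range of the 4 roles with more than 1 peak. E2f3, an activator E2F, had 11 peaks and the highest change, at a peak on chromosome 13 (29966482 to 29967413). That peak averaged 11.5 ± 4.23 CPM at P14 and 7.09 ± 0.899 CPM at P1 (SD, n = 3 each) without overlap between the ages, a log2 change of 0.74 (SE 0.34) that did not pass (edgeR adjusted p = 0.584). The lowest change was at a peak of E2f8, one of the atypical repressor E2Fs, shared with Gm2788 (chromosome 7, 48874104 to 48876322). It averaged 26.1 ± 3.42 CPM at P14 and 37.5 ± 10.9 CPM at P1 (SD, n = 3 each; log2 change -0.53, edgeR adjusted p = 0.559). E2f7, the other atypical repressor, had 8 peaks over the gene with changes between -0.46 and 0.10. Its highest peak (chromosome 10, 110780496 to 110783068) averaged 40.2 ± 11.6 CPM at P14 and 40.3 ± 3.64 CPM at P1 (SD, n = 3 each). The 3 pocket protein genes had 11 tested peaks, which were all below 0 in the fit within peaks, 8 of 11 below 0 without a TMM factor and all above 0, between 0.62 and 1.11, when scaled to the reads between peaks. Within peaks their changes lay between -0.45 and -0.12 at Rb1, between -0.45 and -0.18 at Rbl1 and between -0.53 and -0.08 at Rbl2, and 0 passed in edgeR, DESeq2 or limma-voom, with 0 at an unadjusted p under 0.05.

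Among the replication genes, 11 of 14 had peaks, and 2 of 26 tested peaks passed, those at Orc5 and Orc3. The share of 7.69% stands beside 2.85% of all tested peaks and rests on 2 peaks. Apart from these, changes lay between -0.34 and 0.51. The highest level of all 118 peaks was at Cdt1, which encodes the helicase loading factor (shared with Gm20388, chromosome 8, 122569845 to 122573062). It averaged 60.5 ± 13.5 CPM at P14 and 46.6 ± 11 CPM at P1 (SD, n = 3 each; log2 change 0.39, SE 0.24, edgeR adjusted p = 0.991). Per kb of peak it was also the highest at P14, at 18.8 CPM per kb, next to 18.3 CPM per kb in an Mcm2 peak. Mcm2, a subunit of the replicative helicase, had 5 peaks with changes between -0.05 and 0.51. Mcm3 had 4 with changes between -0.33 and -0.12. Both peaks named for Mcm7 are also named for Mir106b, Mir25 and Mir93, a microRNA cluster inside Mcm7, and had changes of -0.30 and 0.07. Cdc6, the other loading factor, had 3 peaks, the nearest 308 bases from the start, with changes between -0.34 and 0.40. Orc1 and Orc2, further subunits of the origin recognition complex, had changes of -0.16 and -0.15 in a pair of peaks and of 0.01 in 1 peak. Of the 4 origin recognition genes with peaks, then, Orc3 and Orc5 had 1 fallen peak each and Orc1 and Orc2 had none, and the difference between these genes was not tested. Top2a, the topoisomerase that untangles replicated DNA, had changes of -0.31 and 0.39.

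Among the mitotic genes, 6 of 7 had peaks and 1 of 13 tested peaks passed, that at Mis12, a share of 7.69% that stands beside 2.85% of all tested peaks and rests on 1 peak. Plk1, a kinase of mitotic entry, had 1 broad peak of 3161 bp (chromosome 7, 122166610 to 122169770) that averaged 35.8 ± 4.95 CPM at P14 and 36.2 ± 3.16 CPM at P1 (SD, n = 3 each; log2 change -0.01, SE 0.22). Aurkb, the kinase of the chromosomal passenger complex, had 1 peak with a change of -0.20, and Aurka, the spindle pole kinase, 3 with changes between -0.16 and 0.42. The highest of those was at a peak shared with 2010011I20Rik (chromosome 2, 172355192 to 172356197; edgeR adjusted p = 1). Anln, which encodes the contractile ring protein anillin, had 4 peaks. The lowest of these was a change of -0.55 (SE 0.27, edgeR adjusted p = 0.677) without overlap between the ages. Over all 112 tested peaks the ages did not overlap in 2 higher and 5 lower peaks, 6.25% of them. Among all tested peaks the share was 11.8%, made up of 4.58% higher and 7.24% lower.

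By position, 107 of the 118 peaks lay in the RefSeq span of their gene and 10 within 5 kb of it. For the 108 peaks of genes with a promoter entry, the median distance to the nearest start was 13484 bases, and 11 lay within 2 kb. Counting distance to the start of any gene, tested peaks of these genes passed as lower in 0 of 3 with a start inside the peak (at Ccnd3, E2f7 and E2f8, each holding the start of another annotated gene), 2 of 14 within 2 kb with no start inside, 1 of 18 at 2 to 5 kb and 0 of 77 beyond 5 kb. Among all tested peaks the shares lower at P14 were 1.11%, 2.37%, 2.2% and 2.78% in the same bins. The peaks of these genes were somewhat broader than the whole set, with a median width of 1004.5 bp against 852.0 bp, and denser, with medians of 9.22 against 8.11 CPM per kb at P14 and 10.1 against 8.21 at P1.

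**Figure D5:**
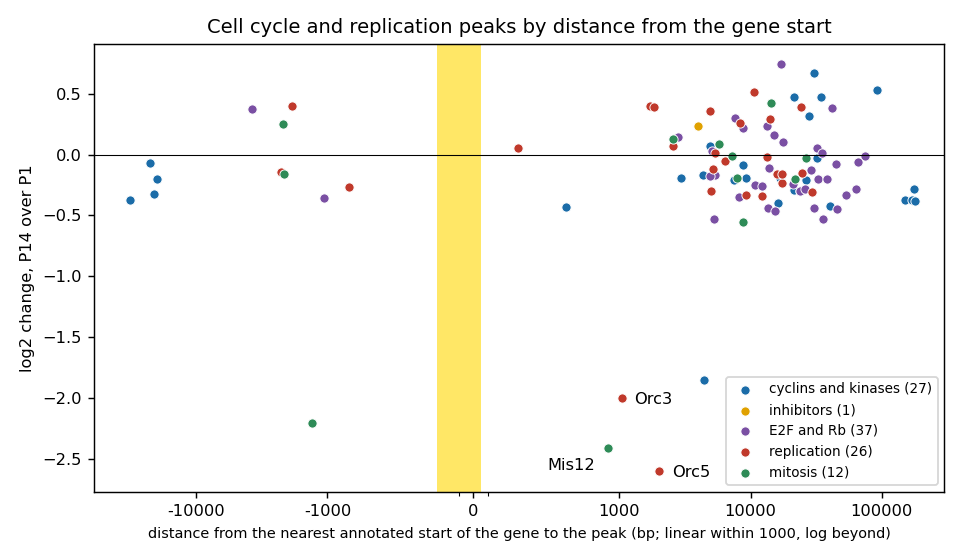
Log2 change, P14 over P1 (y axis), of tested peaks by their distance from the nearest annotated start of their gene (x axis, in bp, linear near the start and log farther out; negative before the start). The promoter window is shaded yellow and holds 0 peaks, and the 3 labelled peaks lay between 925 and 2026 bases inside their genes.

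The 12 genes without a region were Ccna2, Ccne2, Cdk2, Cdkn1b, Cdkn2a, Cdkn2b, Cdkn2c, Cdkn2d, Mcm4, Mcm6, Orc4 and Bub1. None of them had a peak of any name in its RefSeq span or within 5 kb of it, although the Orc4 span covers 50079 bases and that of Bub1 31663 bases. They lay instead in stretches between peaks, except that parts of Ccne2, Cdkn2b and Cdkn2c were in no listed region. The group holds 5 of the 6 inhibitors, among them the Ink4 genes of the Cdkn2 family, which block Cdk4 and Cdk6. Most of these inhibitors are short genes. Cdkn2d, Cdkn2b, Cdkn1b and Cdkn2c span 2963 to 5881 bases and Cdkn2a 20147, while the median stretch between peaks was 11048 bp wide. The share of all genes without a peak was not computed, so neither these 5 nor the 12 are set against a background. The table lists no region with a mean under 10.0 reads per library, so a weaker peak there would not be seen, and no level is given for these genes.

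In the fit over all 209063 regions, 0 of the 115 tested peaks of these genes passed in edgeR, as did 0.0% of all regions, with a smallest adjusted p of 0.214. At an unadjusted p under 0.05, 32 of the 115 peaks passed, 29 of them higher at P14. Of all regions, stretches between peaks included, 23.0% passed, and the share over all peaks was not computed. In the other genes of the same pathways described below, 128 of 389 peaks passed, 114 of them higher. DESeq2 and limma-voom called 0 of the peaks of these genes. Their median log2 change was 0.56 in that fit, where all peaks had 0.73. Within peaks but scaled to the reads between peaks, which moved the median of all peaks to 1.17, the median of these genes was 1.02 and the calls became 2 higher, a Cdk6 peak (3435559 to 3438937, log2 change 1.77) and the E2f3 peak named above (2.05), and 0 lower, beside 6.35% higher and 0.0588% lower over all peaks. The Orc5, Orc3 and Mis12 peaks kept their direction under that scaling at -1.49, -0.91 and -1.28, with edgeR adjusted p of 0.0747, 0.168 and 0.0881. The falls at these 3 peaks thus had the same sign under both scalings, and the calls did not.

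Of 129 other genes of the same pathways, taken from a list of pathway members, 98 had peaks. Of 379 tested peaks, 9 fell and 1 rose, or 2.64%, which is near the 2.85% of all tested peaks. The median log2 change was -0.03. The peak that rose was at Cdkn1c, the imprinted gene of the inhibitor p57 (chromosome 7, 143458487 to 143461261). It held 232, 83 and 55 reads at P14 and 25, 20 and 13 at P1, with a 2.73-fold rise (log2 change 1.45, SE 0.30, edgeR adjusted p = 0.0209). Among replication genes, peaks fell at Dbf4, the activating partner of the Cdc7 kinase, and at Wdhd1, a replisome factor (log2 changes -2.50 and -2.67). Both held their most reads in P1 replicate 1, at 52 and 37. The other falls were at Cenpe and Ttk, a kinetochore motor and a spindle checkpoint kinase (-2.13 and -1.98), at Mdm2 and Chek2 of the p53 and checkpoint pathways (-2.11 and -1.98), and at Anapc4, Cdc14b and Lin9 (-2.08, -2.12 and -1.60). The edgeR adjusted p of these 9 lay between 0.0198 and 0.0496.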

How the data were processed

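The authors deposited 1 table of read counts for 6 libraries. Its values are whole numbers and sum to a different total in each library. Per the submitters' processing notes, the tools were edgeR 3.2.4, bedtools, MACS and BWA, with coordinates on GRCm38, and no roles are stated. How peaks were called and how duplicates were treated is not stated either.

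The 221524 lines were collapsed to 213957 distinct regions. Touching regions alternate between peaks and stretches, and names sit at peaks only, so 101250 peaks were inferred from names, borders and, for 17543 regions, read density alone. Starts are 1-based. Counts of all 6 libraries were tested with edgeR 4.0.16 (quasi-likelihood F test, R 4.3.3, filterByExpr, TMM, age as the only term, Benjamini-Hochberg, threshold 0.05), within peaks and over all regions. DESeq2 1.42.0 and limma 3.58.1 (voom) were alternatives. The standard error is the size of the log2 change divided by the square root of F. Place was taken from RefSeq of GRCm38.p6.

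The members, lists and tests were chosen with earlier results of these data known. The ratio of a peak to its flanks was added after seeing the data. Peaks named with values were those that passed, those with the smallest p in each direction and the highest CPM in each role, and any at a promoter window. Depths are given with the results. PCR copies could not be told apart, so reads are not independent molecules.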

Additional observations from a re-analysis of the deposited data

How the results depend on the processing

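Calls at these genes depended on the libraries and the scaling. The count of 3 lower peaks within peaks was 0 with the share of reads in peaks as a covariate, 0 under scaling by reads from outside peaks, which called 2 higher in place of 0, 1 without replicate 1 of both ages and 2 without a TMM factor. It was 4 with limma-voom, and 0 to 3 on leaving out 1 library. Higher calls stayed at 0 in every other fit within peaks. Over all regions 8 of 114 tested peaks of these genes passed without replicate 1 of both ages, 7 higher and 1 lower. Of all regions, stretches between peaks included, 1.19% were higher and 2.51% lower. The share over all peaks in that fit was not computed, so the 8 are not set against a like background. The median log2 change was 0.37 in these peaks and 0.03 over all regions. In every other fit over all regions, with any single library left out included, 0 passed. The deviations of same-numbered libraries of the ages from their age means had correlations of -0.047, -0.044 and 0.023. Those of differently numbered libraries lay between -0.037 and 0.068. With few reads per peak, such values cannot decide whether the numbers pair the libraries. With the replicate block 0 peaks passed, here and among all peaks, in place of 3, and 0 over all regions. Over all peaks, 2447 were lower and 121 higher, against 53 and 5722 under scaling by reads from outside peaks, 3899 and 110 with limma-voom, 3196 and 101 in DESeq2, 1037 and 134 without a TMM factor, and 0 to 1627 and 0 to 104 on leaving out 1 library, the lowest without P14 replicate 1. The difference between the median log2 change of these genes and that of all peaks was -0.16, and lay between -0.20 and -0.03 under the alternatives within peaks.

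The 3 called peaks kept their sign in every fit within peaks. Among all 112 tested peaks of these genes, 70 changed sign under scaling by reads from outside peaks, 29 with the covariate, 16 without a TMM factor, 10 with limma-voom, 5 to 23 on leaving out 1 library and 31 without replicate 1 of both ages. Of the peaks named with values, some that had not passed changed sign. Scaled to the reads between peaks, the log2 change became 0.85 at the highest Cdk6 peak, 0.64 at E2f8 and 1.25 at Plk1. With the share in peaks as a covariate it became 2.54 at Mki67, -0.01 at Cdt1, -0.13 at E2f7 and 0.00 at the Cdk6 peak nearest the start. The Plk1 change of -0.01 became 0.01 with DESeq2 size factors, 0.01 with limma-voom, 0.15 without a TMM factor, 0.00 without the filter and -0.11 to 0.11 on leaving out 1 library. The E2f7 change of 0.01 became -0.01 with limma-voom, -0.03 with the replicate block and -0.14 to 0.20 on leaving out 1 library, and -0.08 without replicate 1 of both ages. Aurka became -0.10 without replicate 1 of both ages. The causes were not tested.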

Other observations

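The promoter windows of these genes were also searched for letters known from cell cycle promoters, on both strands. The E2F letters TTTGGCGC or TTTCGCGC, each of which holds a CG, were present in 9 of 52 windows, or 17.3%, against 0.813% of all 32851 windows and 2.0% of those with at least 24.0 CG. The 9 genes were E2f2, Rbl1, Cdk1, Cdt1, Mcm3, Mcm5, Mcm6, Mcm7 and Orc1. By role, the letters were in 35.3% of windows of replication genes, 20.0% of E2F and Rb windows and 10.0% of cyclin and kinase windows, and in 0 windows of the inhibitors and the mitotic genes. The letters TTTGAA, known as the cell cycle genes homology region and contained in neither E2F string, were in 25.0% of the windows of these genes. They were in 17.9% of all windows and 5.82% of those with at least 24.0 CG. By role, they were in 4 of 6 windows of mitotic genes, or 66.7% (Anln, Aurka, Mki67 and Plk1), and in 40.0% of E2F and Rb windows. The shares were 20.0% for cyclins and kinases, 11.8% for replication genes and 11.1% for inhibitors. Such matches are descriptions of sequence and not binding sites, and all of these windows lay between peaks.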
